A study of Rattus norvegicus with 12 samples.

Results

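The genes of calcineurin, the calcium-dependent phosphatase of the hypertrophic response, were followed in rat heart muscle cells together with the proteins that modulate it and the transcription factors it acts on. They were chosen by gene name: the catalytic subunits Ppp3ca and Ppp3cb, the regulatory subunit Ppp3r1, the modulators Rcan1, Rcan2 and Myoz2, and the factors Nfatc1, Nfatc2, Nfatc3 and Nfatc4. These are 10 of the 32883 genes in the deposited tables and 16 of their 41078 transcripts. Of the 10, 8 passed a filter on low values and were tested among 13793 genes. Nfatc1 and Nfatc2 did not pass and are given by their levels alone.

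Calcineurin is a heterodimer of a catalytic A subunit, encoded by Ppp3ca, Ppp3cb or Ppp3cc, and a calcium-binding B subunit such as that of Ppp3r1. Calcium-loaded calmodulin activates it, and it then dephosphorylates NFAT proteins, which enter the nucleus and act on genes together with partners such as GATA4 and MEF2. In the heart this pathway is known as a driver of hypertrophic growth. Rcan1 and Rcan2 encode calcineurin-binding regulators, and the short form of Rcan1 is itself a widely used readout of NFAT activity. Myoz2 encodes calsarcin-1, which tethers calcineurin to the Z-disc of the sarcomere and restrains it.

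Cardiomyocytes came from Sprague-Dawley rats 1 to 3 days old, and all cells had first been held with AraC (10 µM), which acts against dividing cells, and then in serum-free medium with ITS supplement. For 24 h they received acetic acid as vehicle, endothelin-1 (ET-1, 100 nM) or the alpha-1 adrenergic agonist phenylephrine (PE, 10 µM), each with DMSO or with JQ1 (1 µM), an inhibitor of BET bromodomain proteins. The 6 groups are vehicle, ET-1 and PE with DMSO, and vehicle, ET-1 and PE with JQ1, with 2 libraries each (replicate 1 and replicate 2, 12 libraries in all). Whether a replicate is a culture or an animal of its own is not stated, so a p-value here reflects the spread between libraries, part of which may be technical. Levels are given as rescaled FPKM (fragments per kilobase of transcript, relative to library size and divided by a scaling factor per library). Because FPKM is per length, levels can be set side by side between genes. Differences are on the log2(rescaled FPKM + 0.5) scale, ± the standard error of the limma fit, and understate the change of low genes.

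The tables held 2.341 to 2.965 gigabases of coverage per library. Cardiomyocyte markers (7 of 7 tested) summed to 10747 to 20592 rescaled FPKM in the 12 libraries. Fibroblast markers (8 of 8 tested) summed to 109 to 1334, and replicate 1 was above replicate 2 by 4.11 to 5.25 times in 6 of 6 groups. Endothelial and endocardial markers (4 of 8 tested) summed to 1.96 to 24.0, macrophage markers (3 of 7) to 0.359 to 7.72 and smooth muscle and pericyte markers (6 of 6) to 30.5 to 220. Of the lymphocyte list, no gene passed the filter, its sum was 0 to 0.886, and the T cell genes Cd3e, Cd3g and Cd247 were listed at 0 in all 12 libraries. Cd2 and Lck were each at 0 in 6 libraries and reached 0.886 and 0.102. With JQ1 the fibroblast sum was 0.486 times that with DMSO in vehicle, 0.565 times in ET-1 and 0.643 times in PE. In bulk RNA, fewer cells of a type and less RNA per cell cannot be told apart.

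Ppp3ca rose and Myoz2 fell with JQ1 in every treatment at an adjusted p under 0.05, in the limma fit without a replicate term. In that fit Ppp3cb and Ppp3r1 passed in ET-1 alone. The JQ1 libraries of the 3 subunits lay above the matched DMSO libraries in each treatment, and those of Myoz2 below. How many of all genes separate so was not counted, and 32 to 37.5% of all genes tested passed with JQ1. With either agonist Myoz2 and, within each replicate number, Rcan1 stood above vehicle, but no member passed in the fit without a replicate term.

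A gene was called at an adjusted p under 0.05. JQ1 against DMSO in vehicle called 1 rise (Ppp3ca) and 1 fall (Myoz2) among the 8 members, where 32% of all genes tested were called. In ET-1 it called 3 rises (Ppp3ca, Ppp3cb and Ppp3r1) and 1 fall (Myoz2), against 37.5% of all genes, and in PE 1 rise (Ppp3ca) and 1 fall (Myoz2), against 36.5%. None of the 8 was called for ET-1 against vehicle (2.87% of all genes; 1 of 8 at an unadjusted p under 0.05) or for PE against vehicle (6.07%; 3 of 8 unadjusted). The same held for PE against ET-1 (0.00725%; 0 of 8 unadjusted), for ET-1 against vehicle under JQ1 (1.36%; 2 of 8) and for PE against vehicle under JQ1 (0.718%; 1 of 8). The median difference of the 8 members with JQ1 was -0.10 in vehicle, -0.16 in ET-1 and -0.01 in PE, beside 0.01, 0.03 and 0.01 over all genes tested.

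Libraries with the same replicate number deviated together, so each comparison was also fitted with the replicate number as a block. The block raised the calls with JQ1 to 2 rises and 3 falls in vehicle (52.8% of all genes), 3 and 3 in ET-1 (56.9%) and 3 and 2 in PE (56.4%). In each treatment these falls include Nfatc4, which passed the filter through DMSO libraries alone, so that its fall was partly fixed by the selection. For ET-1 against vehicle the block called 1 rise, Myoz2 (18.4% of all genes), and for PE against vehicle 2 rises, Myoz2 and Ppp3ca (24%). Under JQ1 it called Rcan1 and Myoz2 for ET-1 (11.6%) and Ppp3ca for PE (12.1%), and for PE against ET-1 none (0.00725%). Because so large a share of all genes was called with JQ1, a count of members called is near the background and says little of the group.

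**Figure D1:**
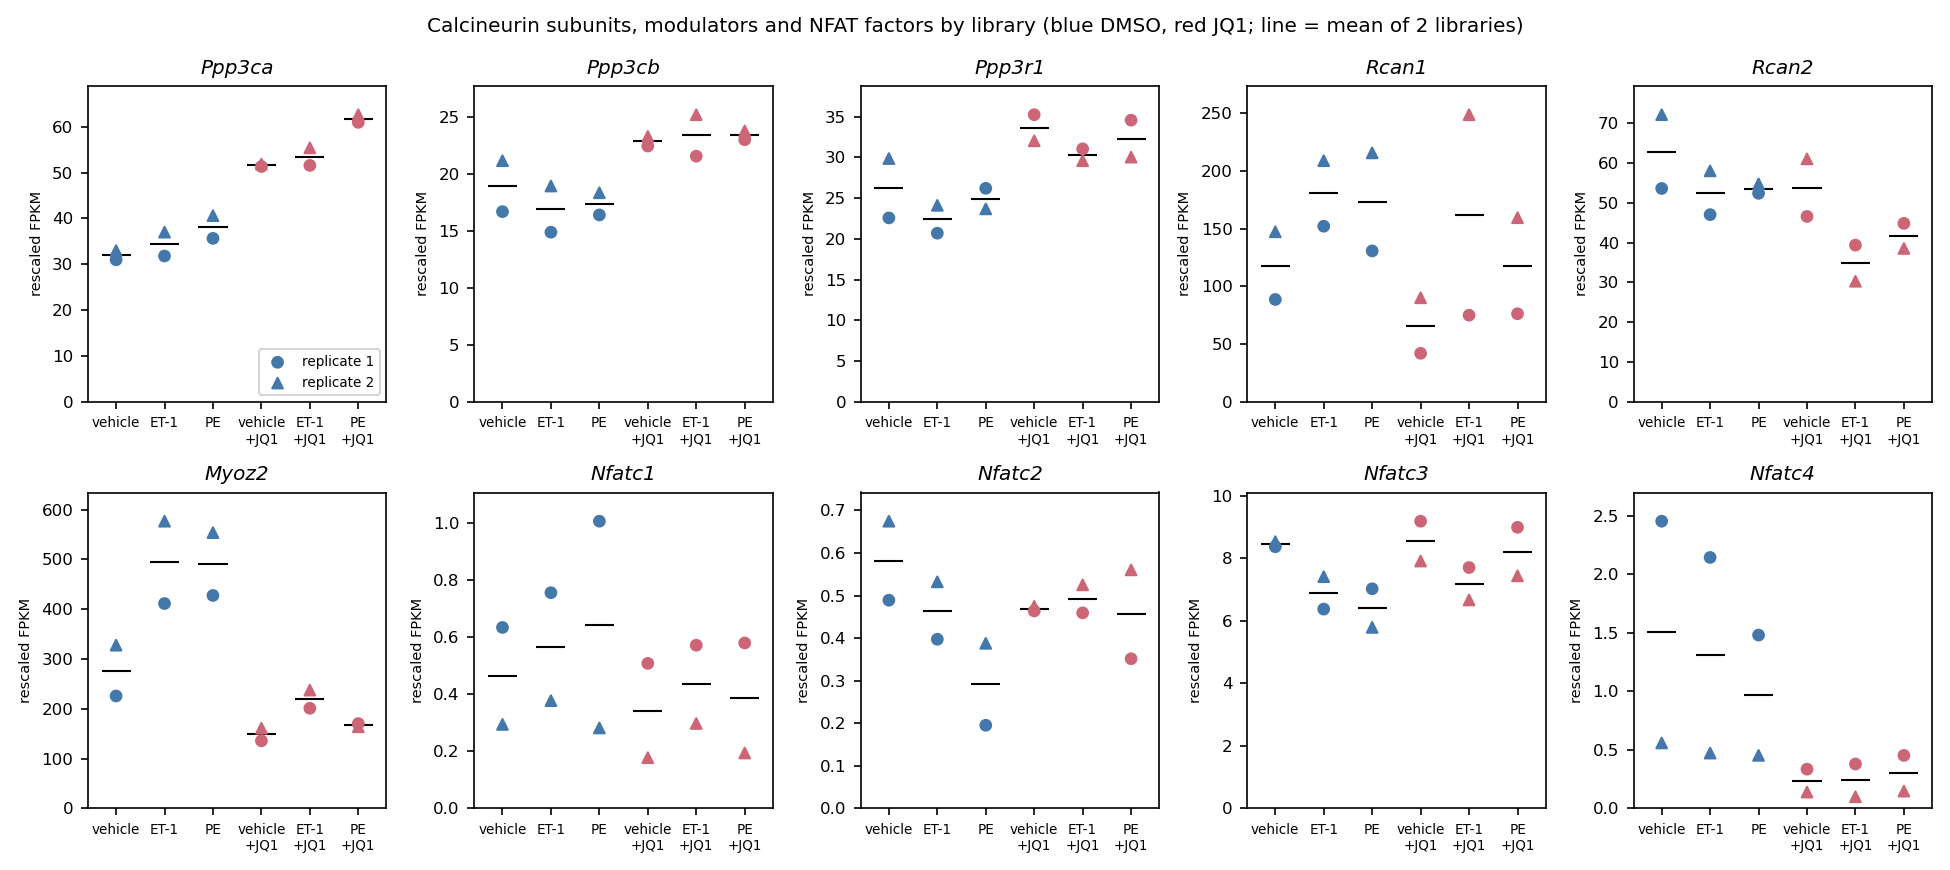
Level of each of the 10 genes (y axis, rescaled FPKM, from 0) in the 6 groups (x axis), with circles for replicate 1, triangles for replicate 2 and a line at the mean of the 2 libraries. The JQ1 libraries (red) of Ppp3ca sit between 51.3 and 62.6, above all DMSO libraries (blue, 31.0 to 40.6), and those of Myoz2 sit between 136 and 237, with every JQ1 library below the DMSO libraries of its own treatment.

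Ppp3ca, the alpha catalytic subunit (ENSRNOG00000009882, chr2:241909832-242184854 on rn6, plus strand, 1 transcript model of 14 exons), was the more abundant catalytic gene, with 61.0 to 72.6% of the summed Ppp3ca and Ppp3cb level per library. With DMSO it stood at 31.0 and 33.0 rescaled FPKM in vehicle, 31.8 and 37.0 in ET-1 and 35.7 and 40.6 in PE (replicate 1 and 2). With JQ1 the levels were 51.3 and 51.9 in vehicle, 51.6 and 55.4 in ET-1 and 61.0 and 62.6 in PE. All 6 libraries with JQ1 lay above all 6 with DMSO, and PE with JQ1 was the highest group in both replicates. Ppp3ca rose with JQ1 by 0.68 ± 0.10 in vehicle (adjusted p = 0.0018), by 0.63 ± 0.10 in ET-1 (0.0018) and by 0.69 ± 0.10 in PE (0.0013). These 3 calls held in each of the 4 fits per comparison that left out 1 library, with and without the block.

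PE against vehicle gave Ppp3ca a difference of 0.25 ± 0.10 with DMSO (adjusted p = 0.18) and 0.26 ± 0.10 under JQ1 (0.25), and the ratio within a replicate was 1.15 to 1.23. Both passed with the block (0.034 and 0.047), but neither did so without any 1 of the 4 compared libraries (0.20 to 0.29, adjusted p = 0.086 to 0.23, and 0.20 to 0.31, 0.065 to 0.29). With ET-1 the groups overlapped vehicle, both with DMSO and under JQ1. In order of level, vehicle and ET-1 were neighbours that overlapped in either arm, PE stood above vehicle in either arm, and the JQ1 arm stood above the DMSO arm.

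Ppp3cb, the beta catalytic subunit (chr15:4209703-4236895 on rn6, plus strand), lay in a narrower band. Its DMSO libraries held 14.9 to 21.1 rescaled FPKM and its JQ1 libraries 21.5 to 25.2, so the arms did not overlap. JQ1 raised it by 0.46 ± 0.15 in ET-1 (adjusted p = 0.041), a call lost without ET-1 with DMSO replicate 1 (0.29, 0.23) or without ET-1 with JQ1 replicate 2 (0.35, 0.20). The difference was 0.28 ± 0.15 in vehicle (adjusted p = 0.19) and 0.42 ± 0.15 in PE (0.057). Both passed with the block (0.03 and 0.0045), the first of them not without vehicle with DMSO replicate 1 (0.19, 0.18) or vehicle with JQ1 replicate 1 (0.19, 0.20). Replicate 2 was higher than replicate 1 in 6 of 6 groups for Ppp3cb as for Ppp3ca.

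Ppp3r1 encodes a regulatory B subunit of calcineurin. It stood at 20.7 to 29.9 rescaled FPKM in the DMSO libraries and at 29.6 to 35.3 in the JQ1 libraries, with vehicle with DMSO replicate 2 above the lower ET-1 library with JQ1. All of its FPKM came from 1 of 2 transcript models, since the other was listed at 0 in all 12 libraries. The rise with JQ1 was 0.43 ± 0.14 in ET-1 (adjusted p = 0.047). It did not pass without any 1 of the 4 compared libraries (0.32 to 0.54, adjusted p = 0.063 to 0.22). Differences of 0.37 ± 0.14 in vehicle (adjusted p = 0.088) and 0.36 ± 0.14 in PE (0.082) did not pass, nor did they with the block (0.063 and 0.06). The level of Ppp3r1 was 0.348 to 0.552 of the summed Ppp3ca and Ppp3cb level per library, a sum that leaves out the catalytic gene Ppp3cc.

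A further catalytic gene, Ppp3cc, was called in the same direction. It stood at 14.7 to 27.6 rescaled FPKM (median 20.2) and is not part of the share of Ppp3ca given above. It rose with JQ1 by 0.60 in vehicle (adjusted p = 0.0012), 0.63 in ET-1 (0.0007) and 0.71 in PE (0.0005). With PE it differed from vehicle by -0.21, which passed with the block alone (adjusted p = 0.041; 0.15 without). Ppp3r2, the other listed subunit gene, did not pass the filter.

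Rcan1 (ENSRNOG00000001979, chr11:32539683-32550539 on rn6, minus strand) had a single transcript model of 4 exons, 2156 bases long and spanning 10857 bases. A split between its long and short forms could therefore not be read: 100% of the gene's FPKM belongs to this model in every library, and reads of a first exon outside it do not enter. The RefSeq promoter table of the GRCr8 build has entries for 7 of the 10 members. Its 250 bases before the annotated Rcan1 start are shown because Rcan1 is the classical NFAT-responsive gene of the group. They lie at chr11:45118237-45118486 on GRCr8, minus strand, and read 5′ to 3′ with motif matches in capitals:
Rcan1: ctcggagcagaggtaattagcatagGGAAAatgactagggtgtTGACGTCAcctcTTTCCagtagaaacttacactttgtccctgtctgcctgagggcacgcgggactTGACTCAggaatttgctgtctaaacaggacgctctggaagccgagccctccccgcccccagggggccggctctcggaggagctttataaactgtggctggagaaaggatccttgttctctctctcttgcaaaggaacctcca
The capitals mark, in order, the NFAT core GGAAA at position -225, the cyclic AMP response element TGACGTCA at -207, a second NFAT core on the other strand (read here as TTTCC) at -195 and the AP-1 motif TGANTCA at -142. Positions give the first base of the match counted from the start. Both strands of the 300-base window, from 250 bases before the start to 50 after it, were searched, and no match shown overlaps another. The same window held the NFAT core in 62.7% of 33469 promoters, the AP-1 motif in 7.33% and the cyclic AMP response element in 1.83%. A match is a run of letters and was not measured as a binding site.

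Rcan1 levels differed widely between replicates. With DMSO it stood at 88.7 and 147 rescaled FPKM in vehicle, 152 and 209 in ET-1 and 131 and 216 in PE. With JQ1 it stood at 42.1 and 90.2 in vehicle, 75.1 and 249 in ET-1 and 76.3 and 160 in PE. Replicate 2 was higher than replicate 1 in 6 of 6 groups, least in ET-1 with DMSO and most in ET-1 with JQ1, whose replicate 2 was the highest of all 12 libraries. Only ET-1 against vehicle with DMSO gave groups that did not overlap.

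Within a replicate number the Rcan1 level was higher with an agonist in every instance: 1.72 and 1.42 times for ET-1 and 1.47 and 1.46 times for PE with DMSO, 1.79 and 2.76 times for ET-1 and 1.81 and 1.77 times for PE under JQ1. Against the spread between libraries, the differences of 0.64 ± 0.64 for ET-1 (adjusted p = 0.64) and 0.55 ± 0.64 for PE (0.67) did not pass, nor with the block (0.12 and 0.15). Under JQ1 they were 1.14 ± 0.64 for ET-1 (adjusted p = 0.40) and 0.84 ± 0.64 for PE (0.59). With the block, whose standard error was 0.26, the former passed (0.031) and the latter did not (0.074). That call was lost without ET-1 with JQ1 replicate 2 (0.69, 0.16), vehicle with JQ1 replicate 1 (1.07, 0.10) or vehicle with JQ1 replicate 2 (1.22, 0.15).

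JQ1 gave Rcan1 a lower level in 5 of 6 matched libraries, at 0.474 and 0.612 times DMSO in vehicle and 0.584 and 0.74 times in PE. In ET-1 the replicates went apart, at 0.493 and 1.19 times. The differences of -0.89 ± 0.64 in vehicle (adjusted p = 0.32), -0.38 ± 0.64 in ET-1 (0.67) and -0.60 ± 0.64 in PE (0.50) did not pass. With the block the fall in vehicle passed (0.02; ET-1 0.23, PE 0.076). It was lost without vehicle with DMSO replicate 1 (-0.75, 0.10), vehicle with JQ1 replicate 1 (-0.81, 0.11) or vehicle with JQ1 replicate 2 (-0.96, 0.061). Leaving out ET-1 with JQ1 replicate 1 turned the sign in ET-1 (0.48, adjusted p = 0.57). At the transcript level, where more rows were tested, the adjusted p of the single Rcan1 model with the block was 0.041 for JQ1 in vehicle and 0.068 for ET-1 under JQ1.

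Rcan2, the second calcineurin regulator and a gene better known as responsive to thyroid hormone, did not follow Rcan1. It stood at 53.6 and 72.1 rescaled FPKM in vehicle, 47.0 and 58.0 in ET-1 and 52.4 and 54.7 in PE with DMSO. With JQ1 it stood at 46.6 and 61.0, 39.4 and 30.3, and 44.8 and 38.5. The lowest libraries were those with an agonist and JQ1 together, and all 4 of these lay below all other libraries of the series. JQ1 in ET-1 gave -0.59 ± 0.20 (adjusted p = 0.051), in PE -0.36 ± 0.20 (0.20) and in vehicle -0.22 ± 0.20 (0.44). The first passed with the block (0.032). It was lost without ET-1 with DMSO replicate 1 (-0.71, 0.059), ET-1 with DMSO replicate 2 (-0.47, 0.18) or ET-1 with JQ1 replicate 2 (-0.31, 0.24). Under JQ1, ET-1 against vehicle gave -0.62 ± 0.20 (adjusted p = 0.18, 0.077 with the block) and PE -0.36 ± 0.20 (0.44, 0.27). The level of Rcan1 divided by that of Rcan2 ran from 0.903 in vehicle with JQ1 replicate 1 to 8.22 in ET-1 with JQ1 replicate 2.

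Myoz2 (ENSRNOG00000014815, chr2:227180886-227207635 on rn6, minus strand) was the most abundant member in 11 of 12 libraries; in ET-1 with JQ1 replicate 2 Rcan1 was higher. With DMSO it stood at 226 and 328 rescaled FPKM in vehicle, 411 and 577 in ET-1 and 427 and 554 in PE. With JQ1 it stood at 136 and 161 in vehicle, 201 and 237 in ET-1 and 170 and 164 in PE. Every agonist library with DMSO lay above every vehicle library, and every library with JQ1 below the DMSO libraries of its own treatment. ET-1 and PE with DMSO overlapped.

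The mean level of Myoz2 was 1.79 times vehicle with ET-1 and 1.77 times with PE in DMSO, a difference of 0.84 ± 0.23 for both. This did not pass without the block (adjusted p = 0.097 for ET-1 and 0.075 for PE) and passed with it (0.008 and 0.006). The blocked calls were lost without ET-1 with DMSO replicate 2 (0.73, 0.068) and without PE with DMSO replicate 2 (0.80, 0.062), and held without any of the other 3 compared libraries. Myoz2 fell with JQ1, with differences of -0.88 ± 0.23 in vehicle (adjusted p = 0.023), -1.16 ± 0.23 in ET-1 (0.006) and -1.54 ± 0.23 in PE (0.0018), to 0.536, 0.444 and 0.34 times the DMSO mean. The falls in ET-1 and PE held without any 1 library. The fall in vehicle was lost without vehicle with JQ1 replicate 1 (-0.76, 0.12), vehicle with DMSO replicate 2 (-0.61, 0.13) or vehicle with JQ1 replicate 2 (adjusted p = 0.052), and held in all 4 such fits with the block.

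Under JQ1, ET-1 against vehicle gave Myoz2 a difference of 0.56 ± 0.23 (adjusted p = 0.27), 1.48 times in both replicates, which passed with the block (0.041) but not without any 1 of the 4 libraries (0.52 to 0.60, 0.096 to 0.23). PE against vehicle gave 0.18 ± 0.23 (adjusted p = 0.80, 0.44 with the block), with 1.25 and 1.02 times. ET-1 and PE were not compared with each other under JQ1. A minor transcript model of Myoz2, at most 1.25% of the gene's FPKM, was listed at 0 in 9 libraries. It was above 0 in PE with DMSO (5.36 and 5.53 rescaled FPKM) and in 1 library of ET-1 with DMSO (2.85).

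The smooth muscle and pericyte marker sum moved in the same directions as Myoz2: it was 1.94 times vehicle in ET-1 and 2.16 times in PE with DMSO, and with JQ1 0.381, 0.37 and 0.325 times DMSO in vehicle, ET-1 and PE. Cnn1 alone ran from 10.6 to 164 rescaled FPKM, and no other marker of the list exceeded 32.8. Of the 6 genes 1 rose and 1 fell with ET-1, and 2 rose and 1 fell with PE (2.87% and 6.07% of all genes called). Their median differences were -0.17 and -0.04. JQ1 gave 0 rises and 3 falls in each treatment, with medians of -1.27, -1.25 and -1.28. With the block it gave 0 rises and 6 falls in each (52.8%, 56.9% and 56.4% of all genes called). The part of this sum in the Myoz2 result was not tested. The summed cardiomyocyte markers were 1.37, 1.21 and 1.31 times DMSO with JQ1. That sum rests mainly on Tnnt2, at 5089 to 14801 rescaled FPKM, and no other marker of the list exceeded 3238. The cardiomyocyte list had a median difference with JQ1 of -0.08 in vehicle, -0.08 in ET-1 and -0.07 in PE, and of its 7 genes 1 rose and 1 fell in vehicle, and 1 rose and 3 fell in ET-1 and in PE, beside 32%, 37.5% and 36.5% of all genes called.

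The 250 bases before the annotated start of Myoz2 are shown beside those of Ppp3ca because the genes moved in opposite directions with JQ1. They lie on GRCr8 at chr2:213852779-213853028, minus strand, and chr2:227839357-227839606, plus strand:
Myoz2: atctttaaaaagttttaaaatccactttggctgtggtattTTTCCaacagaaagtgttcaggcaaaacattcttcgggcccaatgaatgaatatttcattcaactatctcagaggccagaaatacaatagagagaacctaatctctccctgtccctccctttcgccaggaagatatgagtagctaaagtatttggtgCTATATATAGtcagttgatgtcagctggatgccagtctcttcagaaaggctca
Ppp3ca: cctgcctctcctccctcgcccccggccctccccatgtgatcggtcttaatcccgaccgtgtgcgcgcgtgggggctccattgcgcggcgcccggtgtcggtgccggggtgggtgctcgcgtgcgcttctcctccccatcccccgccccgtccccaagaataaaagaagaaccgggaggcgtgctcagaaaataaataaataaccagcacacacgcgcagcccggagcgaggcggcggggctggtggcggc
In Myoz2 the capitals mark an NFAT core on the other strand at position -210 and a MEF2 core, CTA and TAG with any 4 bases between them, at -53. An AP-1 motif lies past the start, at position 11, outside the stretch shown. The MEF2 core was present in 3.84% of the 33469 promoters. The window of Ppp3ca held none of the 4 motifs, nor did those of Rcan2 and Nfatc2, and those of Ppp3cb and Ppp3r1 held the NFAT core alone. The stretch shown has 39.6% G and C in Myoz2, 54% in Rcan1 and 68% in Ppp3ca, a difference that bears on how often any of these letters occur.

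**Figure D2:**
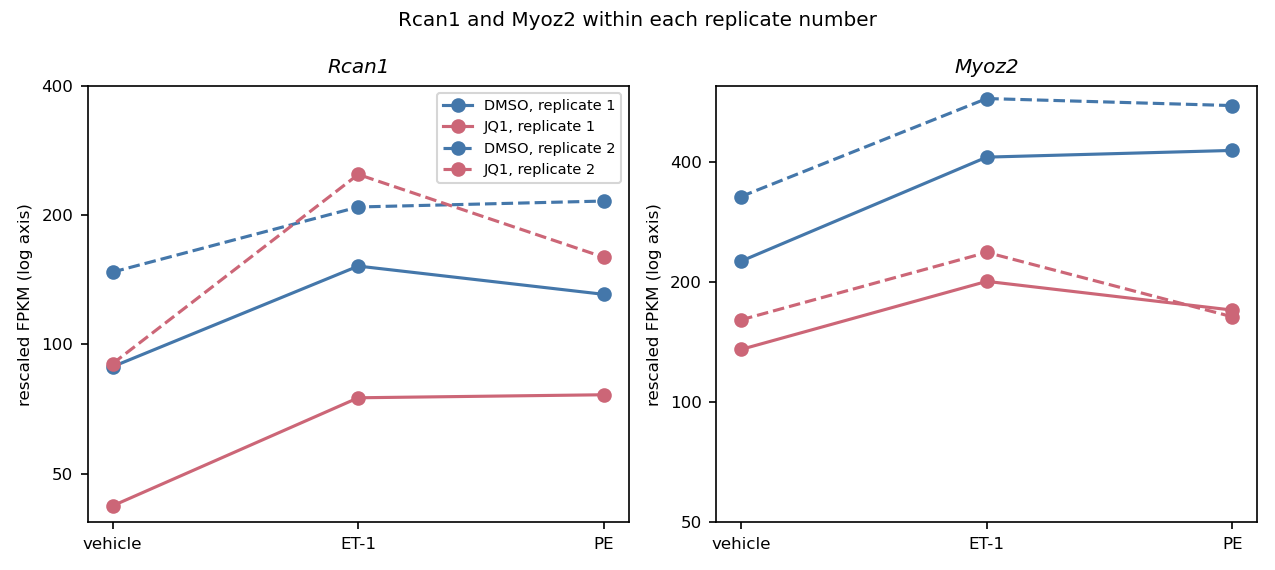
Level of Rcan1 and Myoz2 (y axis, rescaled FPKM, log axis) in vehicle, ET-1 and PE (x axis), with 1 line per replicate number and arm (solid replicate 1, dashed replicate 2, blue DMSO, red JQ1). All 4 lines of Rcan1 go up from vehicle to either agonist, replicate 2 of ET-1 with JQ1 reaches 249, and the JQ1 lines of Myoz2 stay at or below 237 while its DMSO lines reach 577.

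Of the NFAT factors, which carry the calcineurin signal to the nucleus, Nfatc3 was the main one in these cells. It made up 65.9 to 90.9% (median 84.7%) of the summed FPKM of the 4 NFAT genes, itself 6.91 to 11.9 rescaled FPKM per library. Nfatc3 (chr19:38039564-38114003 on rn6, plus strand) stood at 8.37 and 8.53 in vehicle, 6.38 and 7.41 in ET-1 and 7.03 and 5.79 in PE with DMSO. With JQ1 it stood at 9.19 and 7.91, 7.70 and 6.67, and 8.99 and 7.44. Both agonist groups with DMSO lay below vehicle.

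ET-1 differed from vehicle in Nfatc3 by -0.28 ± 0.14 (adjusted p = 0.31, 0.14 with the block) and PE by -0.38 ± 0.14 (0.15 and 0.054), and neither passed. JQ1 in PE gave 0.34 ± 0.14 (adjusted p = 0.096), at 1.28 times in both replicates. It passed with the block (0.043) and was lost without any 1 of the 4 compared libraries (0.25 to 0.42, adjusted p = 0.064 to 0.24). In vehicle and in ET-1 the JQ1 and DMSO libraries overlapped. The longer of the 2 Nfatc3 transcript models held 40.3 to 80.6% of the gene's FPKM by the authors' assignment of shared reads.

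Nfatc4 (chr15:34493138-34504326 on rn6, plus strand), the NFAT factor first tied to cardiac hypertrophy, was low and passed the filter through 3 libraries, replicate 1 of the 3 DMSO groups. Its levels were 2.45 and 0.558 rescaled FPKM in vehicle, 2.14 and 0.471 in ET-1 and 1.48 and 0.452 in PE with DMSO. With JQ1 they were 0.334 and 0.138, 0.378 and 0.0985, and 0.452 and 0.147. Replicate 1 exceeded replicate 2 by 2.41 to 4.54 times in 6 of 6 groups, and in each treatment both JQ1 libraries lay below both DMSO libraries, although in PE the higher JQ1 library and the lower DMSO library were equal to 3 digits. Since only DMSO libraries brought it past the filter, its differences with JQ1 were partly fixed by that selection.

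JQ1 gave Nfatc4 differences of -1.28 ± 0.63 in vehicle, -1.14 ± 0.63 in ET-1 and -0.81 ± 0.63 in PE. They are given as a description with no test, because of that selection. Within a replicate, Nfatc4 with JQ1 was at 0.136 and 0.248 times DMSO in vehicle, 0.177 and 0.209 times in ET-1 and 0.305 and 0.325 times in PE. The fibroblast marker sum stood at 0.494 and 0.453, 0.578 and 0.516, and 0.663 and 0.556 times. All 8 fibroblast markers fell with JQ1 in each treatment with the block (52.8%, 56.9% and 56.4% of all genes called) and none without it, and their part in the Nfatc4 levels was not tested.

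Nfatc1, known for its part in endocardial cells and valve formation, was at 0.177 to 1.01 rescaled FPKM and reached 1 in 1 library, PE with DMSO replicate 1. Replicate 1 was 1.92 to 3.57 times replicate 2 in 6 of 6 groups. The endothelial and endocardial marker sum was likewise higher in replicate 1 in 6 of 6 groups, by 2.29 to 2.95 times, and its part was not tested. That sum of 1.96 to 24.0 rests mainly on Npr3, at 1.67 to 18.6 rescaled FPKM. No other marker of the list exceeded 2.35, and 4 of the 8 passed the filter. Nfatc2, a factor best known from T cells, was at 0.195 to 0.675 in the 12 libraries and below 1 in all of them. Its lowest library was PE with DMSO replicate 1 and its highest vehicle with DMSO replicate 2.

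**Figure D3:**
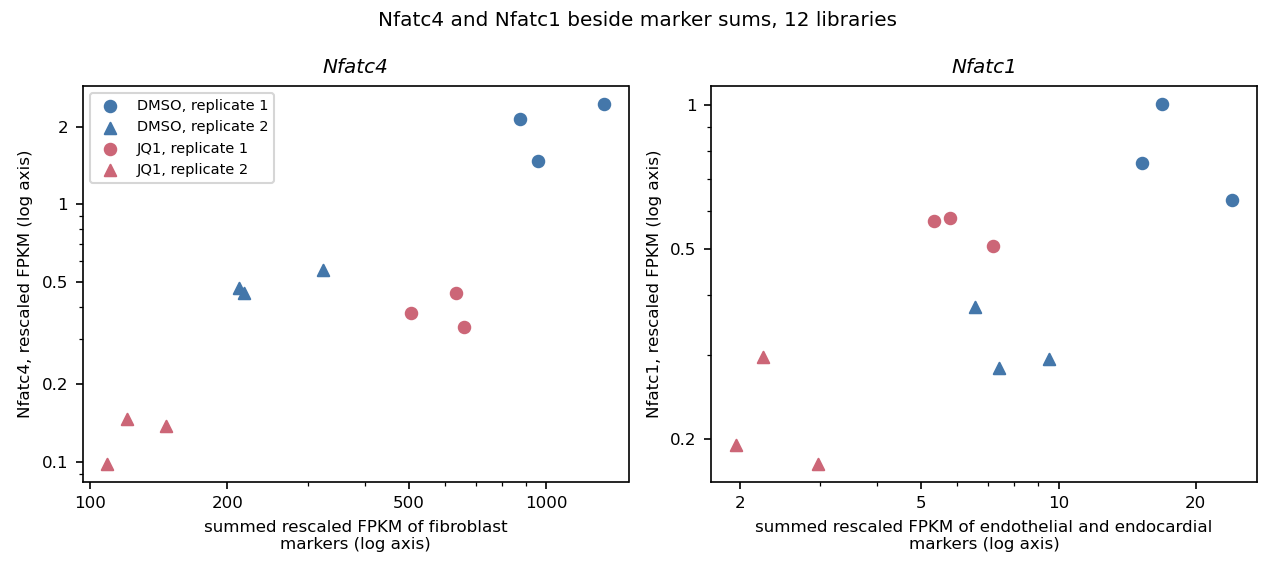
Level of Nfatc4 against the summed fibroblast markers (left) and of Nfatc1 against the summed endothelial and endocardial markers (right), all in rescaled FPKM on log axes, 1 point per library (circles replicate 1, triangles replicate 2, blue DMSO, red JQ1). Replicate 1 lies to the right of and above replicate 2 in each group, and the JQ1 libraries of Nfatc4 lie between 0.0985 and 0.452, at fibroblast sums of 109 to 660.

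The size of the JQ1 effect was compared between treatments for each of the 8 members, and none was called. This was the case for ET-1 minus vehicle (0% of all genes; 616 genes and 0 members at an unadjusted p under 0.05) and for PE minus vehicle (0%; 717 genes and 0 members). It also held with the block (0.0363% and 0.0725% of all genes; 0 and 1 of 8 members unadjusted). Myoz2 had the largest of these differences, with a JQ1 effect that was -0.66 ± 0.33 in PE relative to vehicle (adjusted p = 1, 0.25 with the block) and -0.28 ± 0.33 in ET-1 (1 and 0.69). For Rcan1 they were 0.51 ± 0.90 in ET-1 and 0.28 ± 0.90 in PE (adjusted p = 1 for both, 0.70 and 0.81 with the block). A JQ1 effect called in 1 treatment and not in another is therefore not shown to differ between them.

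**Figure D4:**
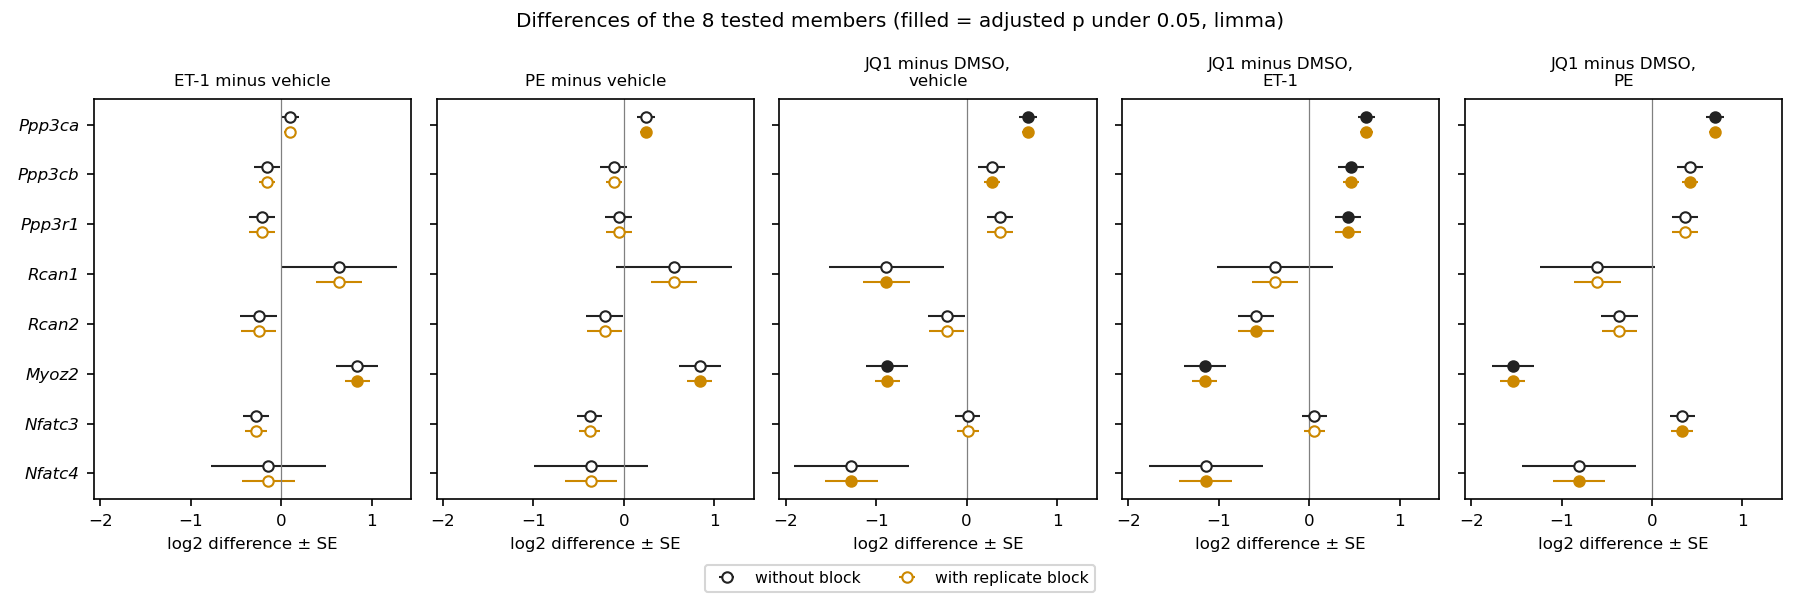
Log2 difference ± SE (x axis) of the 8 tested members (y axis) in 5 comparisons, without the replicate block (black) and with it (amber), where a filled point has an adjusted p under 0.05. Ppp3ca with JQ1 lies at 0.63 to 0.69 and Myoz2 at -0.88 to -1.54 with filled points in both fits, and the error bars of Rcan1 and Nfatc4 without the block are the widest. The filled points of Nfatc4 with JQ1 follow in part from how it passed the filter and are not read as calls.

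Around these members, 57 further genes of the pathway were followed, of which 49 were tested. Without the block, 3 of the 49 rose and 1 fell with ET-1, 8 rose and 3 fell with PE, and with JQ1 6 and 6 changed in vehicle, 9 and 8 in ET-1 and 9 and 10 in PE (rises and falls). With the block these were 10 and 5, 14 and 6, 13 and 13, 14 and 14, and 15 and 14. Of all genes tested, 2.87%, 6.07%, 32%, 37.5% and 36.5% were called in these comparisons without the block and 18.4%, 24%, 52.8%, 56.9% and 56.4% with it, and the counts with JQ1 are near those shares. The median difference of the 49 was 0.10 with each agonist and 0.11 to 0.12 with JQ1, beside -0.02 to 0.03 over all genes tested.

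Upstream, among 8 tested genes of store-operated and TRPC calcium entry, Orai1, the pore of store-operated entry, rose with JQ1, by 1.17 in vehicle (adjusted p = 0.00016), 1.16 in ET-1 (adjusted p = 0.00012) and 1.296 in PE (adjusted p = 9.4e-05). The endoplasmic reticulum calcium sensor Stim2 rose, by 1.69 in vehicle (adjusted p = 0.00069), 1.54 in ET-1 (adjusted p = 0.00065) and 1.54 in PE (adjusted p = 0.0007). Trpc6, a receptor-operated channel gene that is also listed among the targets of NFAT, fell, with differences of -2.63 in vehicle (adjusted p = 0.0045), -2.30 in ET-1 (adjusted p = 0.0063) and -2.61 in PE (adjusted p = 0.0037).

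Of the calmodulin genes, which encode the calcium sensor of calcineurin, Calm3 rose with JQ1 by 0.44 in vehicle (adjusted p = 0.018). Among the 8 NFAT kinases, whose phosphorylation of NFAT opposes calcineurin, 1 fell with each agonist (2.87% of all genes called with ET-1 and 6.07% with PE). This was Dyrk1b, with differences of -1.28 with ET-1 (adjusted p = 0.019) and -1.16 with PE (adjusted p = 0.013), and it rose with JQ1, by 1.12 in ET-1 (adjusted p = 0.0017) and 1.01 in PE (adjusted p = 0.0028). Of the 8 kinases JQ1 called 2 rises and 1 fall in ET-1 and in PE (37.5% and 36.5% of all genes). It called none in vehicle (32%). With the block it called 2 rises and 1 fall in vehicle (52.8%) and 3 rises and 2 falls in ET-1 and in PE (56.9% and 56.4%). Gsk3b rose with JQ1, by 0.67 in ET-1 (adjusted p = 0.045) and 0.68 in PE (adjusted p = 0.043), and Dyrk2 fell, with differences of -0.41 in ET-1 (adjusted p = 0.041) and -0.50 in PE (adjusted p = 0.02).

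Of the 15 tested calcineurin inhibitors, anchors and partners, 1 rose and 2 fell with JQ1 in vehicle, 2 and 3 in ET-1 and 2 and 5 in PE, where 32%, 37.5% and 36.5% of all genes were called. With the block these were 2 and 5, 3 and 6, and 4 and 6, beside 52.8%, 56.9% and 56.4%. Cib1, whose product anchors calcineurin at the sarcolemma, rose by 0.70 in vehicle (adjusted p = 0.0011), 0.67 in ET-1 (adjusted p = 0.00087) and 0.66 in PE (adjusted p = 0.001). The scaffold gene Homer3 fell, with differences of -1.05 in vehicle (adjusted p = 0.013), -0.91 in ET-1 (adjusted p = 0.019) and -1.04 in PE (adjusted p = 0.011). Cabin1, a calcineurin inhibitor, fell too, with differences of -0.54 in ET-1 (adjusted p = 0.0088) and -0.47 in PE (adjusted p = 0.016). Fkbp1a, whose product binds FK506, rose by 0.73 with ET-1 (adjusted p = 0.027) and 0.87 with PE (adjusted p = 0.012). Of the 6 tested relatives and partners of NFAT, Mef2c fell with JQ1, with differences of -0.57 in vehicle (adjusted p = 0.043), -0.60 in ET-1 (adjusted p = 0.03) and -0.60 in PE (adjusted p = 0.031).

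Of 9 tested genes reported to respond to calcineurin and NFAT in heart or muscle, 1 rose and 0 fell with ET-1 (2.87% of all genes called in either direction). For PE 4 rose and 1 fell (6.07%), and with the block 5 rose and 1 fell with either agonist (18.4% and 24%). Pdlim5 rose by 0.77 with ET-1 (adjusted p = 0.034) and 1.04 with PE (adjusted p = 0.011), and Acta1, skeletal actin, by 2.36 with PE (adjusted p = 0.036). With ET-1 Acta1 differed by 1.90 (adjusted p = 0.09, 0.011 with the block). Adssl1 fell with PE and with JQ1, with differences of -1.23 with PE (adjusted p = 0.033) and, with JQ1, -1.70 in vehicle (adjusted p = 0.0022), -2.02 in ET-1 (adjusted p = 0.00075) and -1.80 in PE (adjusted p = 0.0013). Its difference with ET-1 against vehicle was -1.14 (adjusted p = 0.057, 0.015 with the block). With JQ1 none of the 9 rose without the block and 2 fell in each treatment, Trpc6 and Adssl1, beside 32%, 37.5% and 36.5% of all genes called. With it 3 rose and 3 fell in vehicle, 2 and 2 in ET-1 and 1 and 3 in PE, beside 52.8%, 56.9% and 56.4%. The falls of Trpc6, a low gene, may be partly fixed by the filter. The list was compiled with earlier results of these data known, and its count is not independent evidence of a direction.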

How the data were processed

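RNA of cultured neonatal rat cardiomyocytes was sequenced in 12 libraries, after removal of ribosomal RNA and with a stranded kit, per the labels' protocols. Per the submitters' processing notes, the tools were STAR 2.7.1a, Trim Galore 0.6.0, DESeq2 1.24.0 and StringTie 1.3.4d, on the rat build rn6. How strand was set in quantification was not found in the labels, so overlapping and antisense genes may share reads. The deposited tables give the FPKM and the mean coverage (signal) per base of each transcript, per the file headers, and the authors' FPKM was used as deposited. Coverage times length served for depth alone, 2.341 to 2.965 gigabases per library, a precision that is limited mainly by 2 libraries per group.

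FPKM was summed by gene identifier and divided by one factor per library, the median of its ratios to the geometric mean (0.873 to 1.127), over 15551 genes that were above 0 throughout. The 13793 genes that reached 1 rescaled FPKM in 2 or more libraries were fitted with limma 3.58.1 in R 4.3.3 (6 group means, trended and robust moderation) on log2(rescaled FPKM + 0.5), and p-values were adjusted by Benjamini-Hochberg over all of them within a comparison (threshold 0.05). Adjusted p-values are from this test. The fit was tested on simulated data. Figures were drawn with matplotlib 3.10.9 in Python 3.11.15.

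All groups share the replicate numbers 1 and 2, whose meaning the labels do not give. Deviations of same-numbered libraries from their group means correlated at 0.16 to 0.67 over the 15 pairs of groups, so the numbers were taken as pairs. This pairing comes from the data, since no label states it. The blocked value stands beside each result of a member that it changes. For the pathway and marker lists it is given only in part. Fits with 1 library left out assume that the lone library varies like the other groups.

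The members, the pathway lists and the marker lists (cardiomyocyte, fibroblast, endothelial and endocardial, macrophage, lymphocyte, smooth muscle and pericyte) were chosen with earlier results of these data known. All members are named; of each pathway list, at most the 3 genes with the smallest adjusted p among those called in a comparison. Of the listed symbols, Pecam1, Cd79a and Adss1 had no row by that name (Adssl1, listed as well, had one). Promoters are from RefSeq on GRCr8, a build other than that of the files, and no coordinate was converted. Other settings tried are 2 pseudocounts, no filter on low values, another rescaling or none, the compared libraries alone and each library left out. Results of a few genes of the pathway lists are not reported here.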

Additional observations from a re-analysis of the deposited data

How the results depend on the processing

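Counts of members called moved by over 1.5 times in these settings. With the replicate block, which the pairing of libraries led to, they were 1 for ET-1 against vehicle and 2 for PE (0 without), 5 for JQ1 in vehicle and in PE (2 without), 2 for ET-1 and 1 for PE under JQ1 (0 without), and 1 for the Rcan1 transcript over all comparisons (0 without); 6 against 4 for JQ1 in ET-1 was a smaller move. Without the filter JQ1 in ET-1 called 2, and on the compared libraries alone it called 2 and JQ1 in vehicle 1. With the block and no filter, a setting chosen after seeing the data, JQ1 in PE called 3 and either agonist under JQ1 called 0. Leaving out 1 library without the block gave 1 to 2 for JQ1 in vehicle and 2 to 4 in ET-1. With the block, also chosen after seeing the data, it gave 0 to 1 for ET-1, 0 to 1 for PE, 2 to 6 for JQ1 in vehicle, 3 to 5 in ET-1, 3 in PE, 0 to 2 for ET-1 under JQ1 and 0 for PE under JQ1. The blocked counts with JQ1 include Nfatc4, which passed the filter through DMSO libraries alone. The cause was not tested.

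Among the 40 member differences reported, which are not all that were fitted, those whose sign turned without 1 library were uncalled Rcan1 values: JQ1 in ET-1 ran from -1.24 to 0.48, the difference of the JQ1 effect between ET-1 and vehicle from -0.36 to 1.37 and that between PE and vehicle from -0.26 to 0.83. Both pseudocounts kept the direction and side of the threshold for all 40 member differences reported, as did no filter for 38, upper-quartile rescaling for 38 and the deposited scale for 37. The deposited scale shifted the median of all genes by -0.12 for PE against vehicle. FPKM holds no read counts, so the error of low genes such as Nfatc1, Nfatc2 and Nfatc4 is known from 2 libraries a group alone.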

Other observations

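The tested genes outside the group with the pattern most like each modulator were listed by Pearson correlation over the 12 libraries, which share 6 treatments and 2 replicate numbers. For Rcan1 they were Drap1 (0.98), Cavin4 (0.98), Glrx2 (0.97), Nfil3 (0.96) and Ifrd2 (0.96), and Cavin4, a caveolar protein of muscle, ranged from 4.08 to 87.2 rescaled FPKM. For Rcan2 they were Aes, Tmem246, Vsnl1, Thra and Hibch (0.95 to 0.96), among them the thyroid hormone receptor gene Thra at 19.0 to 52.0 rescaled FPKM. For Myoz2 they were AABR07044914.1, Palm2, Ift43, Lims2 and Rab22a (0.98 to 0.99). These are descriptions and carry no test.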
